A study of Mus musculus with 18 samples.

Results

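The subject here is a module of 40 cell cycle and proliferation genes in sorted mouse peritoneal macrophages. They were chosen by gene symbol from a list of well-known proliferation genes. No measured value entered that rule, but earlier results of these data were known when the members were chosen. All 40 symbols were found among the 55573 genes of the deposited count table, and all 40 passed the filter on low counts that left 13443 genes for testing. The members were read by role as 7 G1 cyclins and E2F factors, 6 MCM helicase subunits, 4 genes of the replication clamp and nucleotide supply, 4 S to M cyclins and Cdk1 genes, 7 mitotic kinase, checkpoint and APC/C genes, 8 spindle, kinetochore and chromosome proteins and 4 CDK inhibitors.

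Bulk RNA was sequenced from F4/80+ CD11b+ cells sorted from the peritoneal lavage of C57BL/6 mice, with 3 libraries in each of 6 groups and 2 to 3 mice pooled for each library. Zeb1WT mice carried floxed Zeb1 alleles (Zeb1f/f), and Zeb1∆M mice carried in addition LysM Cre, a recombinase driven by the Lyz2 promoter and active in myeloid cells in general, so both genotypes shared the floxed alleles. Each genotype was studied after 1 dose of LPS, the bacterial endotoxin that triggers acute inflammation (LPS), after 2 successive doses, a model of endotoxin tolerance (LPS + LPS), or after a pretreatment with the anti-diabetic drug Metformin before 1 dose of LPS (Metformin + LPS). In the authors' protocol the LPS group received the vehicle PBS at the time when the LPS + LPS group received its first dose. No group without LPS was analysed here, and the ages of these mice are not given in the sources used here.

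A dividing cell passes from G1, where D cyclins and then E cyclins release the E2F factors, to S phase, where MCM helicases, PCNA and the nucleotide-making enzymes copy the DNA, and then to mitosis, which is driven by cyclin B with CDK1 and by the Polo-like and Aurora kinases. The genes of the later steps are switched off in resting cells by the DREAM complex and its MuvB core, and the CDK inhibitors act as brakes. Mature peritoneal macrophages rest for most of the time but can divide locally, and the number of cycling cells in the cavity is known to change in the course of an inflammation.

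The promoters of these genes carry well-known sequence elements, so a few of them are shown here, with letters taken from RefSeq for the GRCm38.p6 build. The motifs searched on both strands were CCAAT, the element of the factor NF-Y, TTTGAA and TTTAAA, the letters of the CHR element bound by MuvB, and TTTCGCGC and TTTGGCGC, which are forms of the E2F element. Promoters of 300 bases (250 before the start and 50 after) were found for 33 of the 40 members, and 7 (Aurkb, Ccna2, Ccnd1, Ccnd2, Ccne2, Mcm4 and Tpx2) had no entry. CCAAT stood in 78.9% of the 38 member promoters and in 37.4% of all 32851 promoters. CCAAT together with TTTGAA or TTTAAA was present in 50% of the member promoters against 10.7% of all, and an E2F form in 15.8% against 0.813%. By role, CCAAT with a CHR form occurred in all 3 promoters of the S to M cyclins and Cdk1, in 5 of 6 of the mitotic kinase, checkpoint and APC/C genes and in 6 of 7 of the spindle and chromosome genes, but in 2 of 6 of the MCM genes, where 4 of 6 held an E2F form. The stretches below are the bases before the RefSeq start that lie outside annotated exons, with the motifs in capitals. In Mcm5 both E2F forms overlap, the second on the reverse strand, and ATTGG in Cdk1 and Mki67 is CCAAT read on the reverse strand. Ccnb2 (chr9:70421555-70421754, minus strand), Cdc20 (chr4:118437353-118437543, minus) and Cdk1 (chr10:69352939-69353112, minus) represent the mitotic genes, Mcm5 (chr8:75109309-75109508, plus) the replication genes, and Mki67 (chr7:135716380-135716579, minus) is shown because its levels went another way, as described further on.
Ccnb2: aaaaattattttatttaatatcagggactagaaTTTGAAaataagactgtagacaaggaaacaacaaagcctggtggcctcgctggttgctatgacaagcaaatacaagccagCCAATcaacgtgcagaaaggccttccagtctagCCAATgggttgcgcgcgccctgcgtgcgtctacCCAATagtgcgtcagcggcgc
Cdc20: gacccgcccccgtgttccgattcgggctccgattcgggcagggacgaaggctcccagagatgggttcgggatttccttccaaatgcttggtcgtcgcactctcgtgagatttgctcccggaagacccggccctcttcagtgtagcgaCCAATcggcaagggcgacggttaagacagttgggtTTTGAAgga
Cdk1: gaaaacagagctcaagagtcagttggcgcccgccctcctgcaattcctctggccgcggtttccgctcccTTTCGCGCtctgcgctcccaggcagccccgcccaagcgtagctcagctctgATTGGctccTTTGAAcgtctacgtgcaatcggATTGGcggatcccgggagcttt
Mcm5: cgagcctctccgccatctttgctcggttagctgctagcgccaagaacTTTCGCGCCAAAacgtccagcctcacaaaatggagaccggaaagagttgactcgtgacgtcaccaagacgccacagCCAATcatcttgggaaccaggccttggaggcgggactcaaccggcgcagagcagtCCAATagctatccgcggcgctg
Mki67: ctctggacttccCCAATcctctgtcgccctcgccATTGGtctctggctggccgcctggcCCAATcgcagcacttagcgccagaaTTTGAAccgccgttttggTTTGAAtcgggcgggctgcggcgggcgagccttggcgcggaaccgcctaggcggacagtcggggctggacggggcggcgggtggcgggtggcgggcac

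Libraries held between 14053706 and 30570439 counts. Levels are given below as CPM, counts scaled by library totals and TMM factors, and these factors ranged from 0.445 to 0.708 in Zeb1WT Metformin + LPS and from 1.42 to 1.56 in LPS + LPS. Without TMM the median log2 fold change of all genes moved from 0.08 to 0.73 for LPS + LPS against LPS in Zeb1WT (0.01 to 0.59 in Zeb1∆M). It moved from -0.03 to -0.74 for Metformin + LPS against LPS in Zeb1WT (-0.04 to -0.27 in Zeb1∆M) and from 0.03 to 0.6 for Zeb1∆M against Zeb1WT in Metformin + LPS, so changes are relative to the bulk of the genes. Zeb1 itself, counted over the whole gene, stood at 6.41, 6.69 and 7.21 CPM in Zeb1WT LPS and at 2.3, 3.01 and 1.38 in Zeb1∆M LPS, and was likewise lower in Zeb1∆M with Metformin + LPS (edgeR adjusted p = 0.03 and 0.012). In LPS + LPS the genotypes overlapped for Zeb1 (0.912, 2.52 and 1.07 against 0.738, 0.926 and 0.758 CPM), so the label check was not passed there (edgeR adjusted p = 0.35). The F4/80 gene Adgre1 was between 1738 and 4938 CPM and the CD11b gene Itgam between 454 and 2533 CPM in all libraries. Replicate 1 of Zeb1WT LPS + LPS held 1004 CPM of 13 summed neutrophil markers against 4004 and 3217 in the other two, and results that lean on it are given with and without it. The Metformin + LPS libraries carry another series of library codes than the other groups, so the code series and the Metformin treatment cannot be told apart.

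**Figure D1:**
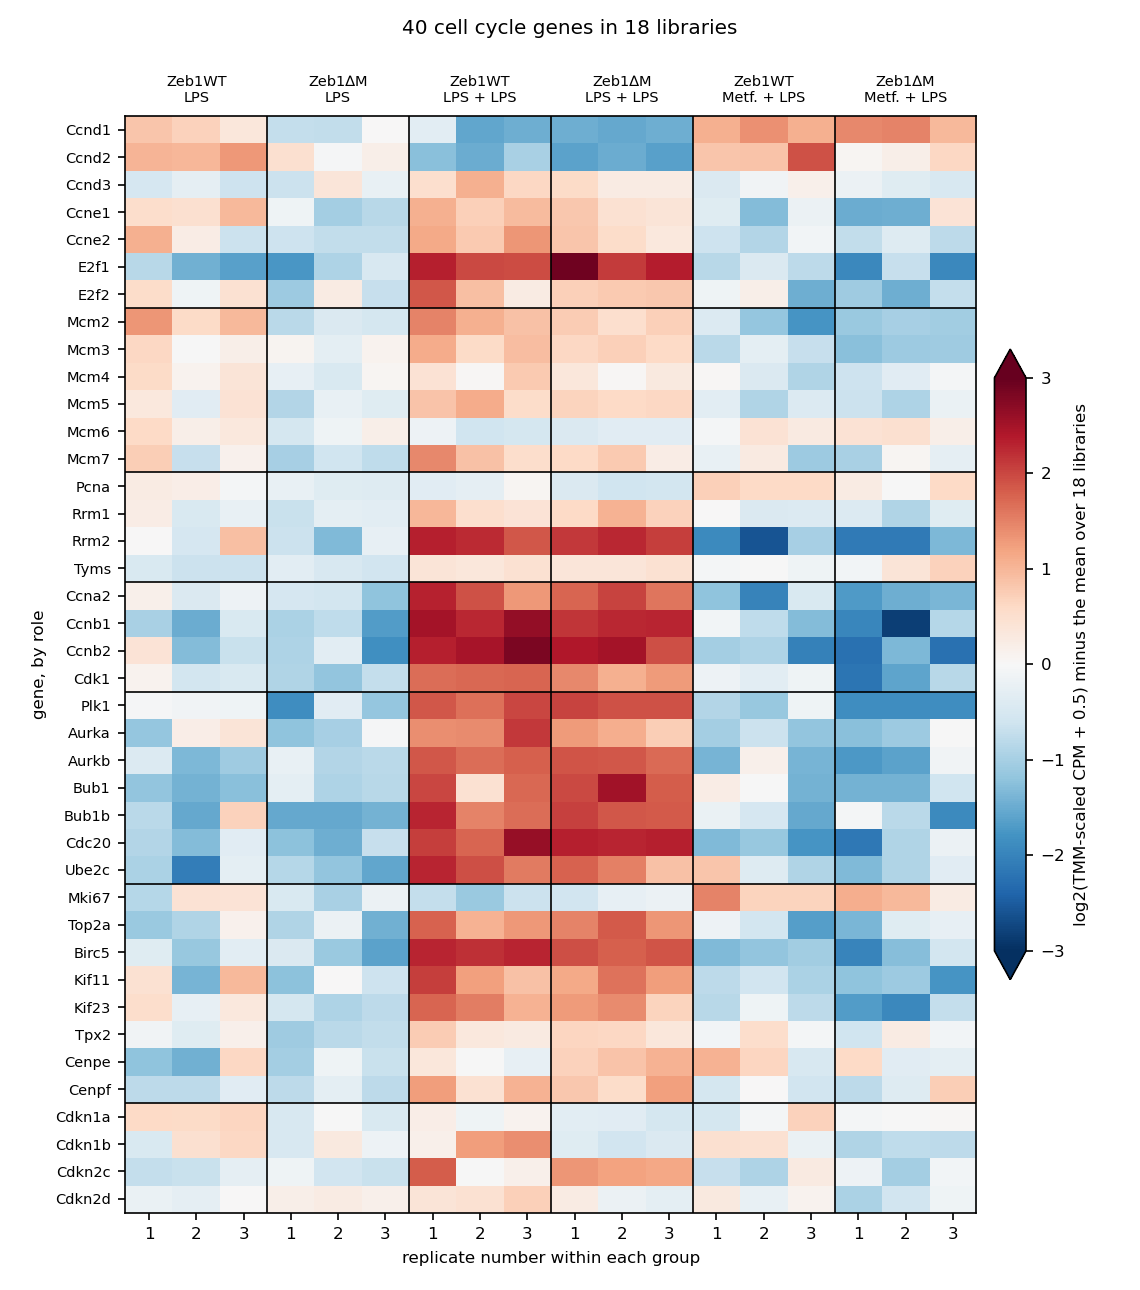
Levels of the 40 cell cycle genes (rows, by role, separated by lines) in the 18 libraries (columns, by group), as log2(CPM + 0.5) minus the mean of the gene over the 18 libraries, with colours limited to 3 in either direction. The S to M cyclins and the mitotic kinase genes are red in all 6 LPS + LPS libraries, whereas Mki67, Ccnd1 and Ccnd2 are not.

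The first comparison asked how the module differed between a tolerance protocol and a single dose of LPS. Mitotic genes were far higher after LPS + LPS in both genotypes, with Ccnb1 at 19 ± 2.45 CPM (SD, n = 3) against 1.37 ± 0.653 in Zeb1WT and at 16 ± 0.762 against 1.18 ± 0.504 in Zeb1∆M. In Zeb1WT 22 of the 40 members rose and 4 fell, where 18.6% of all tested genes rose and 18% fell (edgeR quasi-likelihood test, Benjamini-Hochberg adjusted p under 0.05). In Zeb1∆M 27 members rose and 2 fell, against a background of 15.8% and 16.9%. The median log2 fold change of the members was 1.13 in Zeb1WT and 2 in Zeb1∆M, and that of all tested genes 0.08 and 0.01. Of the members that rose, 20 did so in both genotypes (of 22 and 27), Ccnd1 and Ccnd2 fell in both, and 7 (Ccne1, Cdkn1a, Cdkn1b, Cenpe, E2f2, Mcm4 and Pcna) passed in neither. The share of all tested genes called in both or in neither genotype was not counted, so these overlaps have no background. Both genotypes are compared with their own LPS libraries. In these bulk samples a change in the number of cells of a kind and a change in RNA per cell cannot be told apart.

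**Figure D2:**
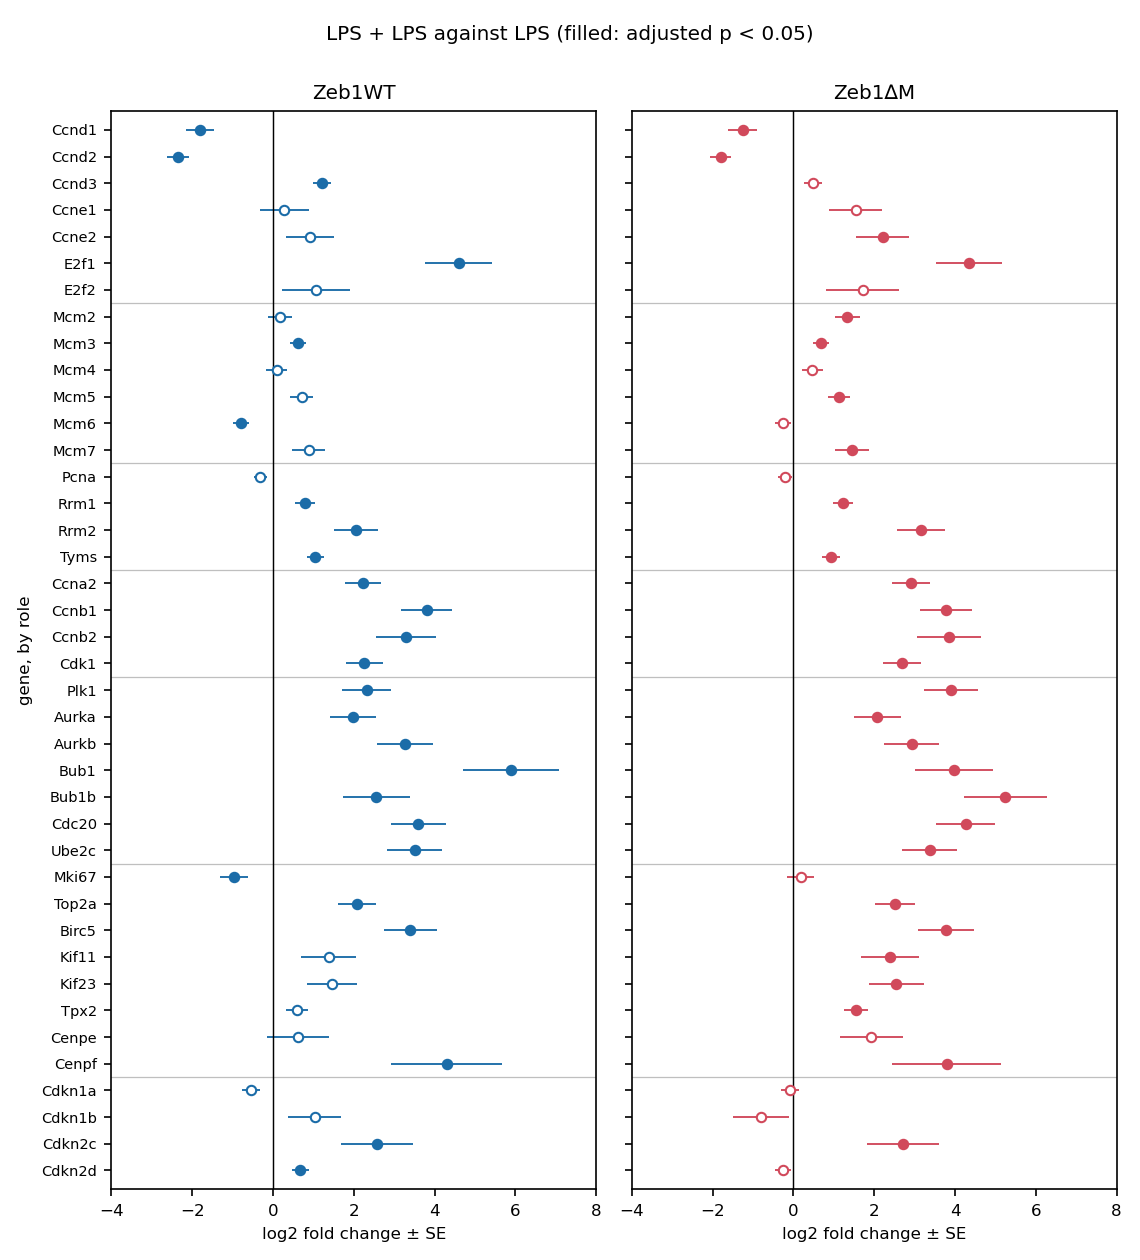
Log2 fold change of LPS + LPS against LPS (horizontal axis, ± SE) of the 40 members (vertical axis, by role) in Zeb1WT (blue, left) and Zeb1∆M (red, right), with filled points for an edgeR adjusted p under 0.05. All 11 S to M cyclin, Cdk1, mitotic kinase, checkpoint and APC/C genes are filled and right of 0 in both panels.

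Cyclins of the S to M steps and Cdk1 rose together, 4 of 4 in each genotype, with median log2 fold changes of 2.77 in Zeb1WT and 3.34 in Zeb1∆M. Ccnb1, the cyclin that starts mitosis, stood at 1.3, 0.76 and 2.06 CPM in Zeb1WT LPS and at 19.4, 16.4 and 21.3 CPM in Zeb1WT LPS + LPS. In Zeb1∆M the same gene went from 1.34, 1.58 and 0.611 CPM to 15.2, 16.4 and 16.6 CPM. Every LPS + LPS library lay above every LPS library, and the log2 fold changes were 3.8 (SE 0.64) and 3.77 (SE 0.64), with edgeR adjusted p of 1.3e-04 and 2.0e-04. Cdk1, the kinase that cyclin B activates, was at 2.47, 1.37 and 1.52 CPM in Zeb1WT LPS and at 8.39, 8.63 and 8.81 CPM in Zeb1WT LPS + LPS. Zeb1∆M went from 0.966, 0.714 and 1.17 CPM to 6.98, 5.3 and 6.2 CPM. The groups did not overlap. Cdk1 rose by 2.26 (SE 0.45) and 2.69 (SE 0.47) on the log2 scale (edgeR adjusted p = 6.8e-04 and 2.6e-04). Ccnb2, the second B cyclin, reached 11.3, 12.5 and 16.1 CPM in Zeb1WT LPS + LPS from 2.6, 0.456 and 0.97 CPM. It reached 11.9, 12.7 and 8.52 CPM in Zeb1∆M from 0.743, 1.38 and 0.153 CPM. Ccna2, which acts in S phase and G2, reached 14.9, 11.2 and 7.27 CPM from 3, 1.83 and 2.3 CPM in Zeb1WT. In Zeb1∆M it reached 10, 12.3 and 9.04 CPM from 1.71, 1.63 and 0.866 CPM. Again all LPS + LPS libraries were above all LPS libraries for both cyclins, with log2 fold changes from 2.22 (Ccna2 in Zeb1WT, edgeR adjusted p = 7.4e-04) to 3.85 (Ccnb2 in Zeb1∆M, edgeR adjusted p = 9.4e-04). The calls of these 4 genes held with each library left out in turn.

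Mitotic kinases, the spindle checkpoint and the APC/C, the ligase that ends mitosis, behaved alike, and 7 of 7 genes rose in each genotype (medians 3.27 and 3.89). Cdc20, the APC/C activator, was at 0.717, 0.406 and 1.27 CPM in Zeb1WT LPS and 8.79, 6.99 and 13.1 CPM in Zeb1WT LPS + LPS. It was at 0.446, 0.306 and 0.866 against 10.7, 10.3 and 10.7 CPM in Zeb1∆M. Aurkb, the kinase of the chromosomal passenger complex, was at 1.25, 0.406 and 0.606 against 7.88, 6.91 and 7.46 CPM in Zeb1WT and at 1.49, 0.765 and 0.815 against 8.05, 7.96 and 7.05 CPM in Zeb1∆M. No LPS library of either genotype reached the lowest LPS + LPS library for these genes. The log2 fold changes were 3.6 (SE 0.69) and 4.26 (SE 0.73) for Cdc20 and 3.27 (SE 0.69) and 2.93 (SE 0.68) for Aurkb (edgeR adjusted p from 1.9e-04 to 0.0028). Ube2c, the E2 enzyme of the APC/C, rose by 3.51 and 3.37 on the log2 scale, Plk1, the Polo-like kinase, by 2.32 and 3.89, and Aurka, which matures the spindle poles, by 1.98 and 2.07, in Zeb1WT and Zeb1∆M respectively. The checkpoint kinase Bub1 was close to the counting limit in LPS. It had 3 counts over the 3 Zeb1WT LPS libraries and 293 counts over the 3 Zeb1WT LPS + LPS libraries, a ratio of 66.9 with a 95% counting interval from 22.7 to 326. Its partner Bub1b rose by 2.56 (SE 0.84) in Zeb1WT and by 5.24 (SE 1.03) in Zeb1∆M. The Zeb1WT call of Bub1b was lost without replicate 1 or 2 of LPS or replicate 1 of LPS + LPS (2.06 to 2.27, edgeR adjusted p from 0.061 to 0.09), and replicate 3 of Zeb1WT LPS held 2.55 CPM of Bub1b against 0.583 and 0.152 CPM in the others.

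Among the spindle, kinetochore and chromosome proteins 3 of 8 rose and 1 fell in Zeb1WT, and 6 of 8 rose in Zeb1∆M. Top2a, the topoisomerase that untangles sister chromatids, was at 1.93, 2.28 and 5.21 CPM in Zeb1WT LPS and 17.2, 10.2 and 12.3 CPM in Zeb1WT LPS + LPS. It was at 2.3, 4.13 and 1.43 against 14.1, 18.3 and 12.6 CPM in Zeb1∆M. Birc5, or survivin, a subunit of the passenger complex, was at 1.03, 0.406 and 1.09 against 9.15, 8.48 and 9.12 CPM in Zeb1WT and at 0.966, 0.408 and 0.153 against 7.01, 6.36 and 6.77 CPM in Zeb1∆M. Neither gene overlapped between the treatments. They rose by 2.08 (SE 0.48) and 2.51 (SE 0.49) for Top2a and by 3.4 (SE 0.66) and 3.78 (SE 0.69) for Birc5 on the log2 scale (edgeR adjusted p from 3.9e-04 to 0.0024). The spindle motors and binders Kif11, Kif23 and Tpx2 rose in Zeb1∆M by 2.38, 2.55 and 1.55 (edgeR adjusted p = 0.017, 0.0067 and 5.1e-04), while their Zeb1WT values of 1.38, 1.46 and 0.59 did not pass (edgeR adjusted p = 0.12, 0.073 and 0.11). The Kif11 call was lost without replicate 1 or 3 of Zeb1∆M LPS or replicate 2 of Zeb1∆M LPS + LPS (2.02 to 2.35, edgeR adjusted p from 0.051 to 0.07). Cenpf, a kinetochore protein, had 3 counts over the Zeb1WT LPS libraries and 102 over the Zeb1WT LPS + LPS libraries, a ratio of 23.3 (95% counting interval 7.74 to 115). The Cenpf calls were lost without replicate 1 or 2 of Zeb1WT LPS (3.68 to 3.75, edgeR adjusted p from 0.083 to 0.085). In Zeb1∆M the call survived only the omission of replicate 2 of LPS (3.27 to 4.01 otherwise, edgeR adjusted p from 0.056 to 0.13). The motor gene Cenpe passed in neither genotype (0.62 and 1.93).

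Mki67, which encodes the Ki-67 protein used as a stain for cycling cells, did not follow the other mitotic genes. It was at 6.9, 17.7 and 17.2 CPM in Zeb1WT LPS and at 7.62, 5.65 and 8.09 CPM in Zeb1WT LPS + LPS. In Zeb1∆M it was at 9.29, 6.37 and 11.3 against 8.45, 10.8 and 11.3 CPM. The treatments overlapped in both genotypes, in Zeb1WT through replicate 1 of LPS, which lay among the LPS + LPS libraries. In Zeb1WT Mki67 fell by 0.96 on the log2 scale (SE 0.34, edgeR adjusted p = 0.035). That call was lost when any library but replicate 1 of LPS was left out (-1.07 to -0.73, edgeR adjusted p from 0.05 to 0.17), with only the groups compared (-0.99, edgeR adjusted p = 0.076) and without TMM (-0.3, edgeR adjusted p = 0.49). In Zeb1∆M the value was 0.18 (SE 0.34, edgeR adjusted p = 0.74). The 18 S to M members other than Mki67 summed to 17.8 to 37.3 CPM in Zeb1WT LPS, 14.5 to 20 CPM in Zeb1∆M LPS, 127 to 162 CPM in Zeb1WT LPS + LPS and 121 to 144 CPM in Zeb1∆M LPS + LPS. Mki67 overlaps the annotated gene Gm45240 on the opposite strand, and the strand setting of the counting is not given in the sources used here. Its promoter printed above holds CCAAT and TTTGAA, as those of Ccnb2 and Cdk1 do.

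**Figure D3:**
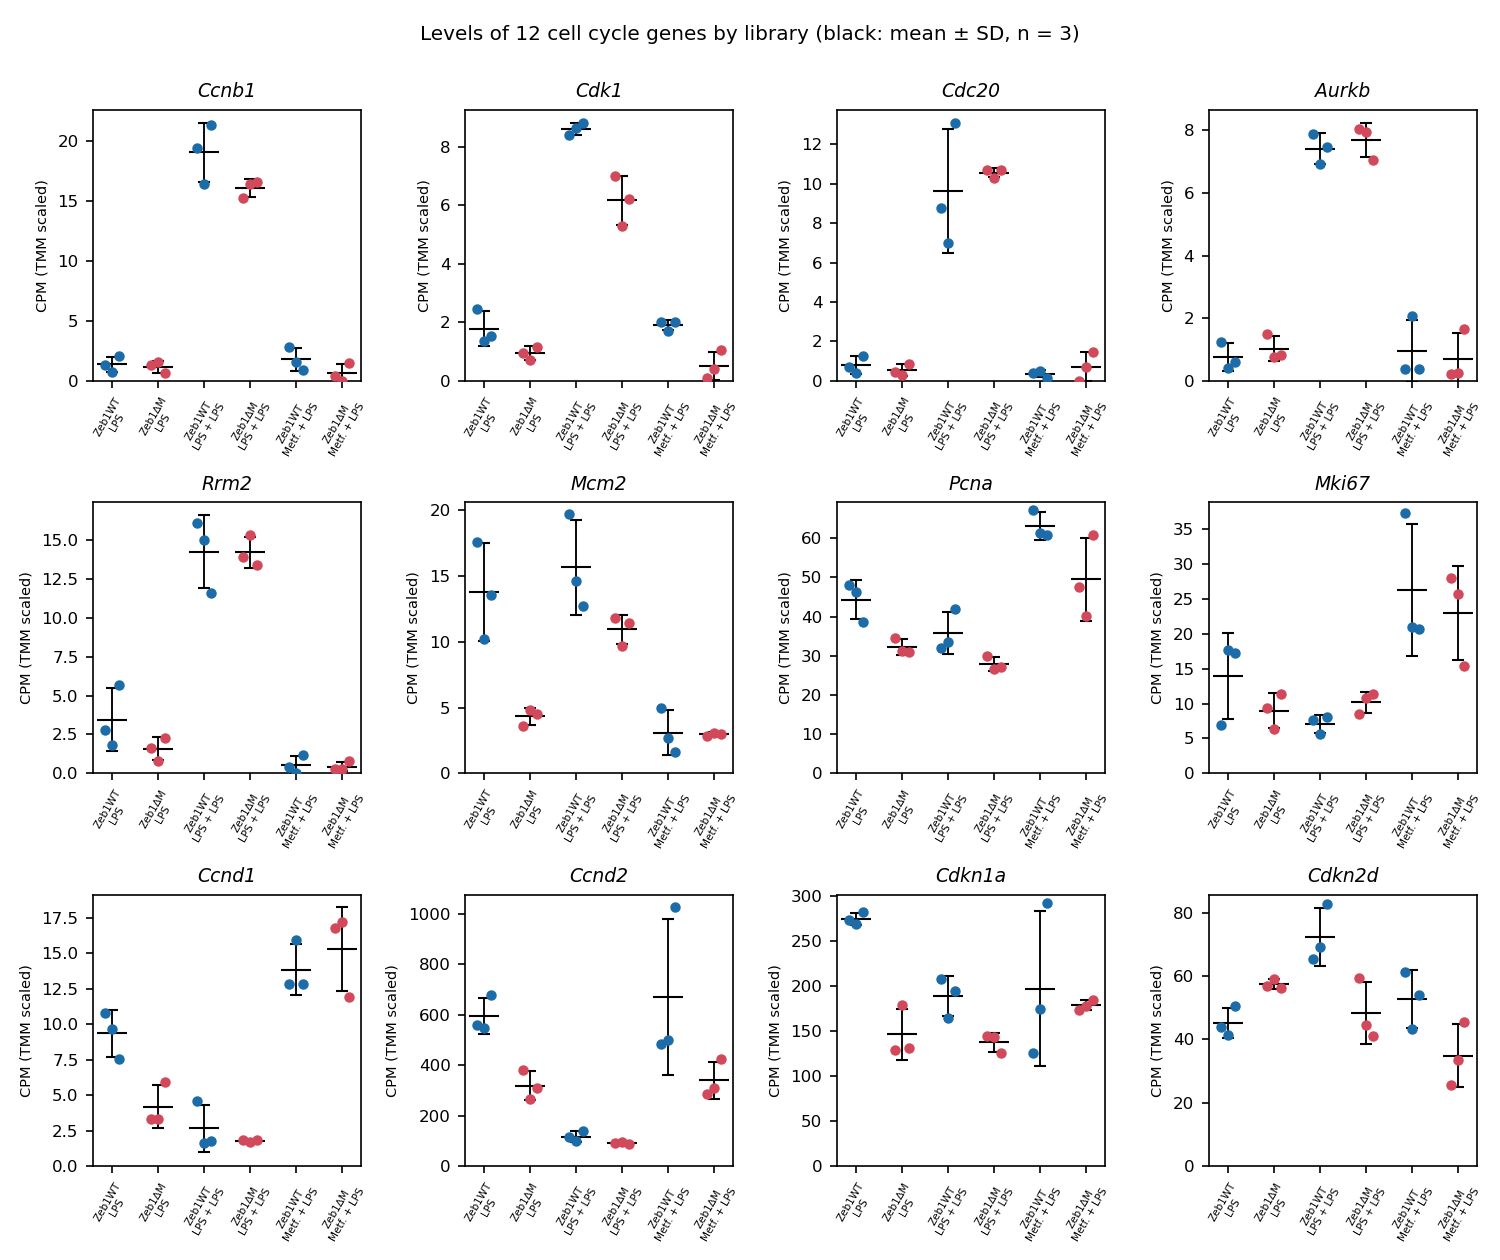
CPM (vertical axes, linear, from 0) of 12 cell cycle genes in each library (points, Zeb1WT blue and Zeb1∆M red) by group (horizontal axes), with the mean ± SD of 3 libraries in black and the part of a bar below 0 not drawn. Ccnb1, Cdk1, Cdc20, Aurkb and Rrm2 are highest in the 6 LPS + LPS libraries, whereas Mki67, Pcna and Ccnd1 reach their highest libraries in Metformin + LPS.

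Among the genes of the replication clamp and nucleotide supply 3 of 4 rose in each genotype, with medians of 0.92 and 1.08. Rrm2, the regulated subunit of the ribonucleotide reductase that makes deoxynucleotides, had the steepest rise of them, from 2.82, 1.83 and 5.7 CPM to 16.1, 15 and 11.6 CPM in Zeb1WT and from 1.63, 0.816 and 2.29 CPM to 13.9, 15.3 and 13.4 CPM in Zeb1∆M. There was no overlap, and its log2 fold changes were 2.05 (SE 0.55, edgeR adjusted p = 0.0068) and 3.16 (SE 0.59, edgeR adjusted p = 4.4e-04). The larger reductase subunit Rrm1 rose by 0.79 and 1.23 and the thymidylate synthase Tyms by 1.05 and 0.92. The Rrm1 call in Zeb1WT was lost without replicate 2 or 3 of LPS or replicate 1 of LPS + LPS (0.58 to 0.74, edgeR adjusted p from 0.051 to 0.082). Pcna, the sliding clamp, was at 48, 46.2 and 38.6 CPM in Zeb1WT LPS and 31.9, 33.5 and 42 CPM in LPS + LPS. In Zeb1∆M it was at 34.5, 31.1 and 31 against 30, 26.6 and 27.2 CPM. These values overlapped in Zeb1WT and lay slightly lower after LPS + LPS in Zeb1∆M, and neither difference passed (-0.31 and -0.21, edgeR adjusted p = 0.17 and 0.39).

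Of the 6 MCM subunits, which form 1 ring-shaped helicase, Mcm3 rose in Zeb1WT, and Mcm2, Mcm3, Mcm5 and Mcm7 rose in Zeb1∆M. Mcm2 was at 17.6, 10.2 and 13.6 CPM in Zeb1WT LPS and 19.7, 14.6 and 12.7 CPM in Zeb1WT LPS + LPS, which overlap (0.18, SE 0.3, edgeR adjusted p = 0.68). In Zeb1∆M it went from 3.64, 4.84 and 4.54 CPM to 11.8, 9.72 and 11.4 CPM with no overlap (1.33, SE 0.31, edgeR adjusted p = 0.0032). Mcm5 was at 10.4, 6.49 and 11.4 against 15.5, 18.6 and 12.3 CPM in Zeb1WT (0.71, edgeR adjusted p = 0.053) and at 4.31, 7.03 and 6.37 against 13.4, 12.7 and 13 CPM in Zeb1∆M (1.13, edgeR adjusted p = 0.0049). The LPS + LPS libraries of Mcm5 were thus above the LPS libraries in both genotypes, although the test passed in Zeb1∆M. Mcm3 rose by 0.61 in Zeb1WT, a call lost without replicate 2 or 3 of LPS or 1 or 3 of LPS + LPS (0.48 to 0.59, edgeR adjusted p from 0.059 to 0.1). It rose by 0.68 in Zeb1∆M, a call lost without replicate 2 of either treatment (0.56 to 0.64, edgeR adjusted p from 0.053 to 0.074). The Mcm7 call in Zeb1∆M (1.44) was lost without replicate 1 of LPS (1.33, edgeR adjusted p = 0.053). Mcm6 fell in Zeb1WT from 51.3, 38.1 and 42.4 CPM to 30.6, 22 and 23.2 CPM (-0.8, edgeR adjusted p = 0.0042), with no overlap, a call that was not made without TMM (-0.16, edgeR adjusted p = 0.61). Summed over the 6 subunits, the MCM level was 95.8 to 146 CPM in Zeb1WT LPS against 116 to 152 CPM in LPS + LPS and 70 to 91.9 against 111 to 113 CPM in Zeb1∆M.

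G1 regulators split by gene. Ccnd2, per length the most abundant D cyclin in LPS, fell from 558, 549 and 677 CPM to 115, 97.4 and 139 CPM in Zeb1WT, and from 382, 267 and 308 CPM to 90.3, 97.1 and 88.3 CPM in Zeb1∆M. Every LPS + LPS library was below every LPS library, and the log2 fold changes of -2.35 (SE 0.27) and -1.8 (SE 0.26) held with each library left out (edgeR adjusted p = 2.0e-06 and 4.2e-05). Ccnd1, the D cyclin induced by growth factors, fell from 10.8, 9.68 and 7.58 CPM to 4.59, 1.64 and 1.79 CPM in Zeb1WT and from 3.34, 3.31 and 5.91 CPM to 1.81, 1.68 and 1.8 CPM in Zeb1∆M (-1.81 and -1.25, edgeR adjusted p = 5.3e-04 and 0.012). Its groups did not overlap, but the Zeb1∆M call was lost without replicate 3 of LPS (-0.86, edgeR adjusted p = 0.11) or without TMM (-0.65, edgeR adjusted p = 0.19). Ccnd3, the D cyclin of many blood cells, moved the other way and rose in Zeb1WT from 103, 120 and 95.3 CPM to 207, 304 and 223 CPM (1.21, SE 0.23, edgeR adjusted p = 5.4e-04). In Zeb1∆M its values of 93.5, 189 and 124 against 218, 174 and 174 CPM overlapped (0.48, edgeR adjusted p = 0.13). The factor E2f1 was nearly absent in LPS, with 0.583, 0.203 and 0.121 CPM in Zeb1WT and 0.0743, 0.51 and 0.866 CPM in Zeb1∆M, and reached 9.15, 7.1 and 6.96 CPM and 14, 7.7 and 9.37 CPM in LPS + LPS. It rose by 4.6 (SE 0.83) and 4.34 (SE 0.81) with no overlap (edgeR adjusted p = 2.9e-04 and 4.3e-04). Ccne1, an E cyclin, was at 2.73, 2.64 and 3.88 against 4.16, 3.17 and 3.86 CPM in Zeb1WT and at 1.56, 0.612 and 0.764 against 3.46, 2.57 and 2.41 CPM in Zeb1∆M, and did not pass (0.28 and 1.54, edgeR adjusted p = 0.76 and 0.079). Ccne2 rose in Zeb1∆M by 2.21 (edgeR adjusted p = 0.014), a call lost without replicate 1 of LPS + LPS (2.01, edgeR adjusted p = 0.052).

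CDK inhibitors showed no common direction. Cdkn1a, or p21, was at 273, 269 and 282 CPM in Zeb1WT LPS and 208, 164 and 194 CPM in LPS + LPS. In Zeb1∆M it was at 129, 179 and 131 against 144, 143 and 125 CPM. The Zeb1WT groups did not overlap, yet neither difference passed (-0.54 and -0.09, edgeR adjusted p = 0.072 and 0.79). Cdkn2d, or p19INK4d, rose in Zeb1WT from 43.9, 41.3 and 50.5 CPM to 65.2, 69.1 and 82.7 CPM (0.68, edgeR adjusted p = 0.014). That call was lost without replicate 2 of LPS or replicate 3 of LPS + LPS (0.57 to 0.64, edgeR adjusted p from 0.052 to 0.058). Zeb1∆M went from 56.9, 59.1 and 56.1 CPM to 59.5, 44.5 and 40.9 CPM (-0.25, edgeR adjusted p = 0.39). Cdkn2c, or p18INK4c, was at 0.179, 0.203 and 0.424 against 3.46, 0.611 and 0.752 CPM in Zeb1WT and at 0.52, 0.255 and 0.204 against 2.31, 2.1 and 1.99 CPM in Zeb1∆M. It rose by 2.58 and 2.72 (edgeR adjusted p = 0.03 and 0.026), but without replicate 1 of Zeb1WT LPS + LPS the first value was 1.34 (edgeR adjusted p = 0.27). That call was lost as well without replicate 1 or 2 of Zeb1WT LPS (edgeR adjusted p from 0.094), and the Zeb1∆M call in 4 of 6 fits, without replicate 2 or 3 of LPS and 1 or 2 of LPS + LPS (2.52 to 2.74, edgeR adjusted p from 0.052 to 0.091). Cdkn1b, or p27, was at 0.314, 1.06 and 1.21 against 0.729, 2.14 and 2.41 CPM in Zeb1WT and at 0.297, 0.867 and 0.51 against 0.369, 0.253 and 0.331 CPM in Zeb1∆M, overlapping in both.

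Further cell cycle genes, from lists of textbook members outside the 40, were read by count. These lists were chosen with earlier results of these data known and are not an independent check. Of 64 other G2 and M genes 33 rose and 1 fell in Zeb1WT (median 2.07) and 43 rose and 1 fell in Zeb1∆M (median 2.62). Their smallest adjusted p belonged to Pttg1, or securin, which fell in Zeb1WT by 2.83 (SE 0.4, edgeR adjusted p = 2.1e-05), and to Tacc3, a spindle protein, which rose by 2.33 and 2.99 (edgeR adjusted p = 3.4e-05 and 4.4e-06). Of 65 tested S phase genes 17 rose and 4 fell in Zeb1WT (median 0.66) and 21 rose and 3 fell in Zeb1∆M (median 1.03). Timeless and Rfc3, both of the replication fork, fell in both genotypes, and Asf1b, a histone chaperone, rose in both by 2.53 and 3.38 (edgeR adjusted p = 4.0e-04 and 5.4e-05). Of 42 tested regulators of G1, DREAM and p53, 9 rose and 10 fell in Zeb1WT and 7 rose and 11 fell in Zeb1∆M. The background for all these lists was 18.6% of all tested genes higher and 18% lower in Zeb1WT. In Zeb1∆M it was 15.8% and 16.9%, and the share of regulators that rose is near the background in both genotypes. Rbl1, or p107, a pocket protein, fell by 2.09 and by 1.76, and the growth regulator Myc fell in Zeb1WT by 1.55 (edgeR adjusted p = 8.4e-06, 6.2e-05 and 1.3e-04). In the macrophage growth factor axis 4 of 12 tested genes rose and 1 fell in Zeb1WT and 3 rose and 1 fell in Zeb1∆M, the falling gene being Csf1, the macrophage growth factor (-1.79 and -2.66, edgeR adjusted p = 0.0012 and 4.7e-05).

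Cell type markers moved with the same contrast. The 12 markers of large peritoneal macrophages summed to 35932 to 48742 CPM in the LPS libraries, 5134 to 7882 CPM in Zeb1WT LPS + LPS and 10460 to 16358 CPM in Zeb1∆M LPS + LPS, and 10 and 8 of the 12 fell. Of 13 neutrophil markers 7 rose and 0 fell in Zeb1WT, and 8 rose and 1 fell in Zeb1∆M. They summed to 596 to 1067 CPM in LPS and to 863 to 4004 CPM in LPS + LPS. The 10 monocyte and small peritoneal macrophage markers split, with 4 higher and 5 lower in Zeb1WT and 4 higher and 4 lower in Zeb1∆M. The 7 granulocyte and monocyte progenitor markers summed to 2.53 to 2.75 CPM in Zeb1∆M LPS + LPS and to 3.65, 20.9 and 9.44 CPM in Zeb1WT LPS + LPS, against 3.34 to 9.53 CPM in LPS. Only 2 of these 7 passed the filter on low counts, and of those 0 rose and 1 fell in each genotype. The 18 S to M members were at 162 CPM in the Zeb1WT LPS + LPS library with 1004 CPM of neutrophil markers and at 127 and 145 CPM in those with 4004 and 3217 CPM. The 10 B cell markers fell in 8 cases in Zeb1WT and 1 in Zeb1∆M, and the 6 dendritic cell markers summed to 267 to 1017 CPM in LPS and 1.9 to 5.77 CPM in LPS + LPS. That sum does not stand for each dendritic cell marker, since 4 of the 6 were tested and 2 fell in Zeb1WT and 1 in Zeb1∆M. In Zeb1∆M 2 of them lay above 0 and 2 below (log2 fold changes from -9.38 to 4.44). The part of these cell type markers in the result was not tested. Without replicate 1 of Zeb1WT LPS + LPS, 18 members rose and 3 fell in Zeb1WT, while 4665 of all genes were called against 4925 with it.

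The interaction of genotype and LPS + LPS, which tests whether the change differed between Zeb1WT and Zeb1∆M, passed the edgeR test for 0 of the 40 members, where 0% of all tested genes passed. At an unadjusted p under 0.05 there were 5 members and 939 genes, and the DESeq2 Wald test called 0 members and 74 genes. The 30 members above 0 included Mcm2 at 1.15 (SE 0.43, edgeR adjusted p = 0.56) and Kif23 at 1.1 (SE 0.89, edgeR adjusted p = 0.88). A difference between the genotypes in how many members rose (22 and 27) is therefore not shown.

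The second comparison asked what a Metformin pretreatment changed at a single dose of LPS. Rrm2 and Mcm3 were lower after Metformin in both genotypes. None of the S to M cyclins or Cdk1 passed, with Ccnb1 at 2.85, 1.57 and 0.929 CPM in Zeb1WT and 0.406, 0 and 1.46 CPM in Zeb1∆M Metformin + LPS. In Zeb1WT 2 members rose (Pcna and Bub1) and 4 fell (Mcm2, Mcm3, Mcm4 and Rrm2), against a background of 13% of all tested genes higher and 12.3% lower. In Zeb1∆M 5 rose (Ccnd1, Pcna, Tyms, Mki67 and Tpx2) and 4 fell (Mcm3, Rrm2, Plk1 and Cdkn2d), against 12.6% and 13.6%. These shares are near the background. The median log2 fold changes of the members were -0.15 and -0.11, and 28 members passed in neither genotype, a count likewise given without a background. Without TMM the calls were 0 higher and 17 lower in Zeb1WT and 2 higher and 6 lower in Zeb1∆M, while 5597 and 3273 of the 13443 genes tested were called. The direction of the member calls thus depended on the scaling. Of the markers, 7 and 8 of 13 neutrophil genes and 6 of 10 B cell genes fell in Zeb1WT and Zeb1∆M. Of 10 monocyte and small peritoneal macrophage genes 7 rose and 0 fell in Zeb1WT, and 5 rose and 1 fell in Zeb1∆M. Of 12 large peritoneal macrophage genes 3 rose and 0 fell in Zeb1WT, and 5 rose and 1 fell in Zeb1∆M. Their part in the result was not tested.

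**Figure D4:**
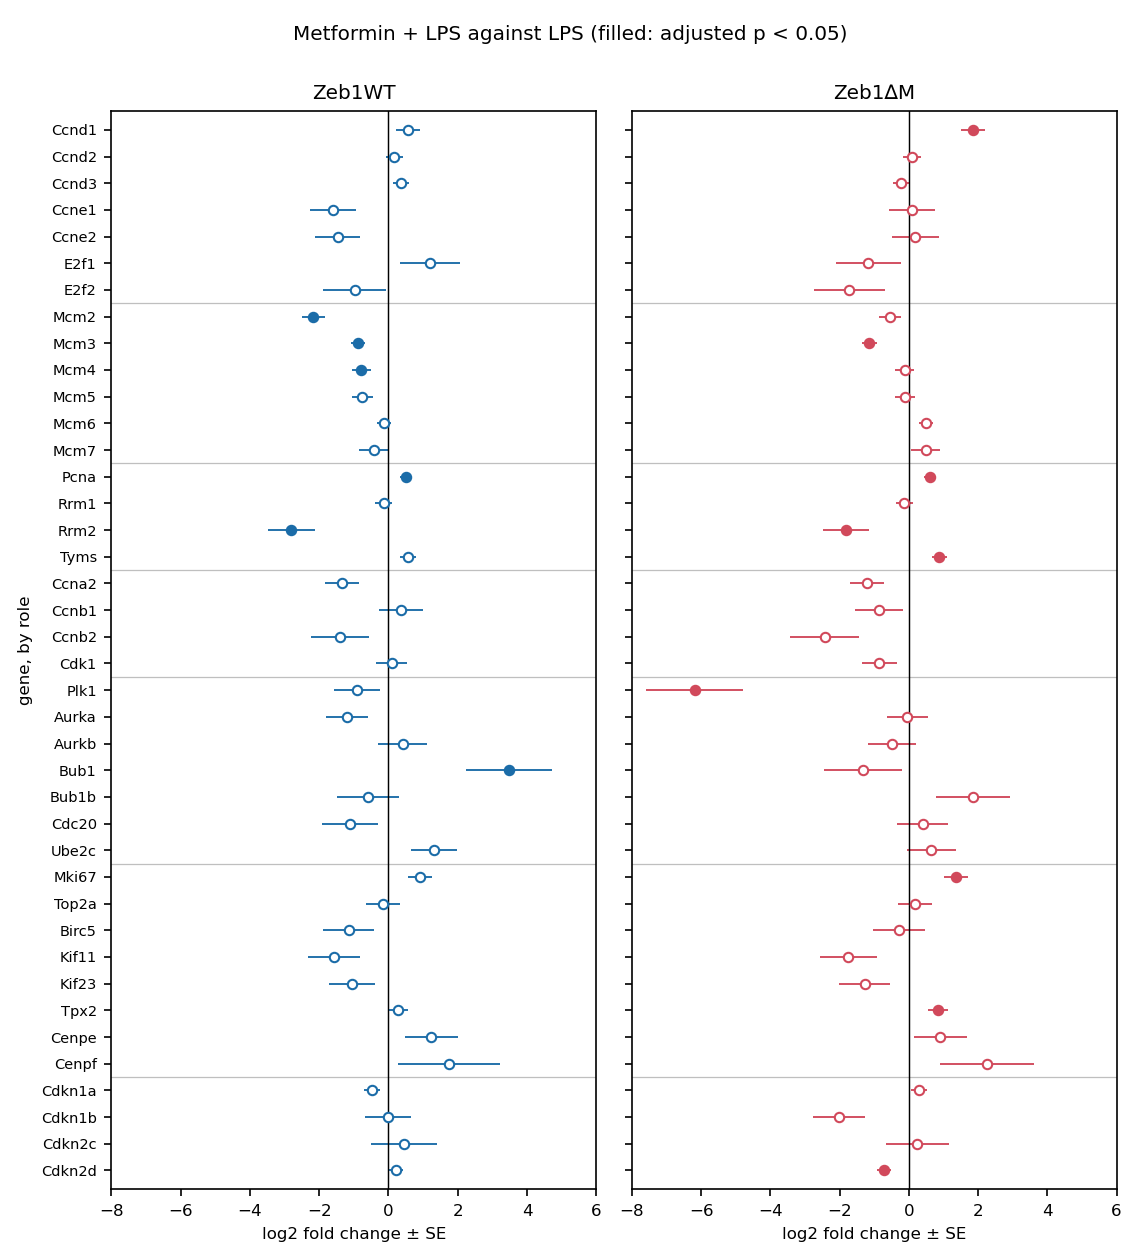
Log2 fold change of Metformin + LPS against LPS (horizontal axis, ± SE) of the 40 members (vertical axis, by role) in Zeb1WT (blue) and Zeb1∆M (red), with filled points for an edgeR adjusted p under 0.05. Filled points lie on both sides of 0, with Mcm3 and Rrm2 left of 0 and Pcna right of 0 in both panels, and Plk1 in Zeb1∆M rests on 0 counts in all 3 Metformin + LPS libraries.

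Among the replication genes, the calls of Mcm2, Mcm3 and Rrm2 in Zeb1WT and of Mcm3 and Tyms in Zeb1∆M held with each library left out. Mcm2 was at 4.95, 2.73 and 1.63 CPM in Zeb1WT Metformin + LPS, below all of its 17.6, 10.2 and 13.6 CPM in LPS (-2.17, SE 0.33, edgeR adjusted p = 1.7e-04). In Zeb1∆M it was at 2.84, 3.11 and 3.02 CPM, also below the LPS libraries but by 0.54 on the log2 scale, which did not pass (edgeR adjusted p = 0.23). Mcm3 was at 13.3, 19.4 and 14.5 CPM in Zeb1WT against 36.9, 23.5 and 27 CPM in LPS, and at 9.64, 11 and 11.1 CPM in Zeb1∆M against 25.1, 19.3 and 25.7 CPM. It fell with no overlap by 0.88 and by 1.14 (edgeR adjusted p = 0.0045 and 8.7e-04). Rrm2 was at 0.381, 0.0462 and 1.16 CPM in Zeb1WT and 0.254, 0.263 and 0.803 CPM in Zeb1∆M, again below every LPS library of its genotype (-2.8 and -1.81, edgeR adjusted p = 0.0052 and 0.049). The Zeb1∆M call of Rrm2 was lost without replicate 1 or 3 of LPS or replicate 1 or 2 of Metformin + LPS (-1.79 to -1.4, edgeR adjusted p from 0.09 to 0.2). Mcm4 fell in Zeb1WT by 0.78 (edgeR adjusted p = 0.039), a call lost without replicate 1 or 3 of LPS or 2 or 3 of Metformin + LPS (-0.78 to -0.54, edgeR adjusted p from 0.083 to 0.19). Mcm5 was at 6.56, 4.21 and 6.11 CPM in Zeb1WT and 5.12, 4.16 and 7.18 CPM in Zeb1∆M, with differences of -0.75 and -0.11 that did not pass (edgeR adjusted p = 0.061 and 0.81). Pcna stood at 67.1, 61.3 and 60.9 CPM in Zeb1WT and 47.6, 40.1 and 60.9 CPM in Zeb1∆M, above all LPS libraries of its genotype. It rose by 0.51 and 0.62 (edgeR adjusted p = 0.034 and 0.012), but without TMM the values were -0.2 and 0.4 and neither was called (edgeR adjusted p = 0.47 and 0.19). The Zeb1WT call of Pcna was lost without any 1 of the LPS libraries or replicate 1 of Metformin + LPS (0.42 to 0.57, edgeR adjusted p from 0.052 to 0.14), and the Zeb1∆M call without replicate 3 of Metformin + LPS (0.47, edgeR adjusted p = 0.056). Tyms rose in Zeb1∆M by 0.88 (edgeR adjusted p = 0.0082), or by 0.66 without TMM, which did not pass (edgeR adjusted p = 0.087).

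Among the other members, Mki67 reached its highest levels here, with 37.2, 20.9 and 20.7 CPM in Zeb1WT and 28, 25.6 and 15.3 CPM in Zeb1∆M. All 6 libraries lay above the LPS libraries of their genotype, of which the highest were at 17.7 CPM in Zeb1WT and 11.3 CPM in Zeb1∆M. Without TMM, however, Mki67 overlapped between the treatments in Zeb1WT. It rose by 1.35 (SE 0.35) in Zeb1∆M, with each library left out as well, and stood higher by 0.91 (SE 0.34) in Zeb1WT, which did not pass (edgeR adjusted p = 0.0086 and 0.058). Ccnd1 was at 12.8, 15.9 and 12.8 CPM in Zeb1WT and 16.8, 17.2 and 11.9 CPM in Zeb1∆M, above all LPS libraries. Without TMM Ccnd1 likewise overlapped with LPS in Zeb1WT. Its rise of 1.86 in Zeb1∆M held with each library left out (SE 0.35, edgeR adjusted p = 0.0011), and the 0.56 in Zeb1WT did not pass (edgeR adjusted p = 0.24). Ccnd2 was at 486, 499 and 1029 CPM in Zeb1WT and 286, 309 and 424 CPM in Zeb1∆M, overlapping with LPS (0.17 and 0.09, edgeR adjusted p = 0.66 and 0.83), but without TMM the Zeb1WT value was -0.63 and was called (edgeR adjusted p = 0.025). Cdk1 was at 2, 1.71 and 2.01 CPM in Zeb1WT and 0.101, 0.421 and 1.04 CPM in Zeb1∆M, and Top2a at 4.19, 3.05 and 1.16 CPM and 1.52, 3.53 and 3.87 CPM. Both overlapped with LPS and did not pass in either genotype. Plk1 had 0 counts in all 3 Zeb1∆M Metformin + LPS libraries and 24 counts over the Zeb1∆M LPS libraries (edgeR adjusted p = 0.0046). With the 0 set to a floor of 3 counts over the group and the 24 taken as exact, it was 9.09-fold lower. Bub1 had 29 counts over the Zeb1WT Metformin + LPS libraries against 3 in LPS (95% counting interval of the ratio 3.89 to 64.4). Its call (edgeR adjusted p = 0.048) survived only the omission of replicate 3 of Metformin + LPS (otherwise 2.96 to 4.22, edgeR adjusted p from 0.084 to 0.13). With only the groups compared, neither Plk1 in Zeb1∆M nor Bub1 in Zeb1WT entered the test. The Tpx2 rise of 0.85 in Zeb1∆M (edgeR adjusted p = 0.039) was lost without any LPS replicate and without replicate 2 or 3 of Metformin + LPS (0.64 to 0.95, edgeR adjusted p from 0.063 to 0.17).

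Inhibitors after Metformin were mostly near LPS. Cdkn1a was at 125, 174 and 292 CPM in Zeb1WT, the widest spread of any group, and at 173, 178 and 184 CPM in Zeb1∆M (-0.48 and 0.29, edgeR adjusted p = 0.14 and 0.38). Cdkn2d was at 61.2, 43.1 and 54.1 CPM in Zeb1WT and at 25.7, 33.4 and 45.4 CPM in Zeb1∆M. All Zeb1∆M libraries lay below LPS and the gene fell by 0.72 (edgeR adjusted p = 0.016), a call lost without replicate 1 or 2 of Metformin + LPS (-0.67 to -0.52, edgeR adjusted p from 0.067 to 0.11). Cdkn1b was at 1.05, 1.02 and 0.464 CPM in Zeb1WT and 0.101, 0.158 and 0.142 CPM in Zeb1∆M, and Cdkn2c was below 1 CPM in all 6 libraries. Neither passed (Cdkn1b in Zeb1∆M -2.03, edgeR adjusted p = 0.054). Ccnd3 was at 108, 136 and 163 CPM and 128, 113 and 105 CPM and Ccne1 at 1.24, 0.416 and 1.47 CPM and 0.304, 0.316 and 2.46 CPM, with no call.

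In the wider lists 5 of 64 G2 and M genes rose and 6 fell in Zeb1WT, and 2 rose and 2 fell in Zeb1∆M. The background was 13% of all tested genes higher and 12.3% lower in Zeb1WT, and 12.6% and 13.6% in Zeb1∆M. Of 65 S phase genes 1 rose and 14 fell in Zeb1WT, where the base excision enzyme gene Ung fell by 3.66 and the flap nuclease gene Fen1 by 1.29 (edgeR adjusted p = 0.0037 and 0.003), and 7 rose and 7 fell in Zeb1∆M, which is near the background. Of 42 regulators of G1, DREAM and p53, 4 rose and 12 fell in Zeb1WT, among them Myc by 1.97 (edgeR adjusted p = 6.0e-05), and 4 rose and 9 fell in Zeb1∆M, among them the repressor gene E2f4 by 1.7 (edgeR adjusted p = 0.0017). In the growth factor axis 2 rose and 2 fell in each genotype, and the receptor gene Csf1r rose by 1.09 and 0.84 (edgeR adjusted p = 0.0058 and 0.026). The interaction of genotype and Metformin passed the edgeR test for 0 members, against 0.156% of all tested genes, with 7 of 40 members and 1832 of 13443 genes at an unadjusted p under 0.05. DESeq2 called 2 members and 300 genes. Mcm2 had an interaction of 1.63 (SE 0.45, edgeR adjusted p = 0.14) and was 1 of the 2 members called by DESeq2 (1.65, DESeq2 adjusted p = 0.021). Without the low-count filter edgeR called Mcm2 as well (1.65, edgeR adjusted p = 0.034). In the S phase list 1 gene, the DNA ligase gene Lig1, passed in the main fit (3.09, SE 0.45, edgeR adjusted p = 0.0098).

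The third comparison asked how the loss of Zeb1 in myeloid cells changed the module within each treatment. After a single dose of LPS the members tended to be lower in Zeb1∆M, with 32 of 40 below 0 and a median log2 fold change of -0.65 against 0.01 over all tested genes. Only Mcm2 passed and was lower, against a background of 0.937% of all tested genes lower and 0.208% higher. Its 3.64, 4.84 and 4.54 CPM in Zeb1∆M lay below the 17.6, 10.2 and 13.6 CPM in Zeb1WT without overlap (-1.66, SE 0.32, edgeR adjusted p = 0.012). Leaving out the first replicate of either genotype ended the Mcm2 call (-1.55 to -1.45, edgeR adjusted p from 0.064 to 0.08). There were 15 of 40 members at an unadjusted p under 0.05, and 1844 of the 13443 genes tested. Ccnd1 (-1.16, edgeR adjusted p = 0.12), Ccnd2 (-0.9, edgeR adjusted p = 0.11) and Cdkn1a (-0.91, edgeR adjusted p = 0.063) did not pass with edgeR, but DESeq2 called these 3 as well as Mcm2. Outside the 40, Lig1 (-2.28, edgeR adjusted p = 0.0023) and Myc (-1.35, edgeR adjusted p = 0.012) were lower in Zeb1∆M. The 10 B cell markers summed to 419 to 651 CPM in Zeb1WT LPS and to 101 to 158 CPM in Zeb1∆M LPS, with 4 of 10 lower, and 4 of 13 neutrophil markers were lower too. Their part in the difference was not tested.

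**Figure D5:**
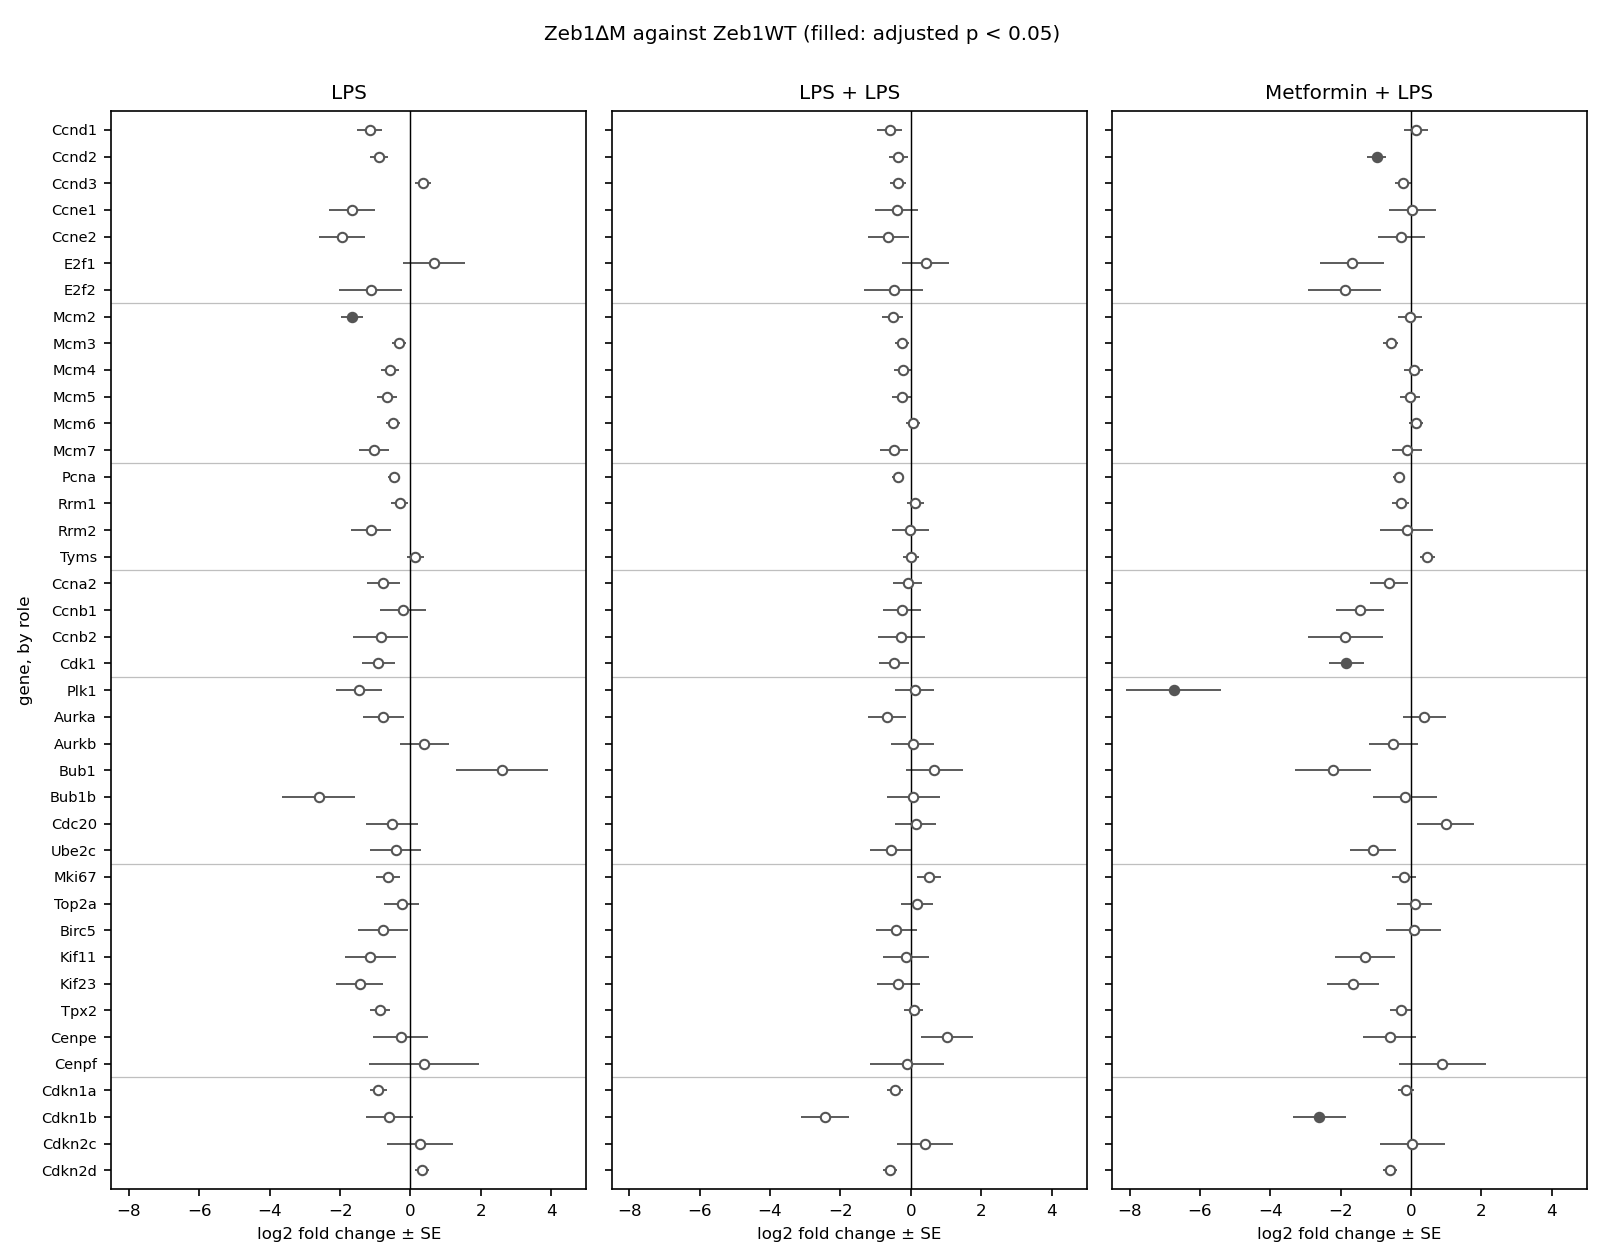
Log2 fold change of Zeb1∆M against Zeb1WT (horizontal axis, ± SE) of the 40 members (vertical axis, by role) within LPS, LPS + LPS and Metformin + LPS, with filled points for an edgeR adjusted p under 0.05. Most points of the LPS panel lie left of 0, those of the LPS + LPS panel lie around 0 with none filled, and Plk1 at the far left of the third panel rests on 0 counts in all 3 Zeb1∆M libraries.

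After LPS + LPS 0 members passed in either direction, against 0.461% of all tested genes higher and 0.216% lower in Zeb1∆M. The median was -0.25, and 3 of 40 members had an unadjusted p under 0.05, as did 1575 of the 13443 genes tested. Without replicate 1 of Zeb1WT the median of the members was -0.05, and 397 genes were called against 91 with it. DESeq2 called 382 genes and 1 member, Cdkn1b (-2.5, DESeq2 adjusted p = 0.019). Cdkn1b was at 0.369, 0.253 and 0.331 CPM in Zeb1∆M, below the 0.729, 2.14 and 2.41 CPM of Zeb1WT. It was called by edgeR once replicate 1 of Zeb1WT was left out (-2.81, edgeR adjusted p = 0.039) but not with it (-2.45, edgeR adjusted p = 0.12). Cdk1 was at 6.98, 5.3 and 6.2 CPM in Zeb1∆M, below the 8.39, 8.63 and 8.81 CPM of Zeb1WT, by 0.48 on the log2 scale (edgeR adjusted p = 0.74). The mitotic kinase genes had a median of 0.07 between the genotypes. Large peritoneal macrophage markers were higher in Zeb1∆M here (5 of 12), and their part was not tested. Precision at these levels was limited, since the SE of Cdk1 was 0.42 and that of Ccnb1 0.55.

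With Metformin + LPS 4 members were lower in Zeb1∆M (Ccnd2, Cdk1, Plk1 and Cdkn1b) and 0 higher, against a background of 4.61% lower and 1.26% higher. Ccnd2 was at 286, 309 and 424 CPM in Zeb1∆M, below the 486, 499 and 1029 CPM of Zeb1WT (-0.98, SE 0.26, edgeR adjusted p = 0.03). Without replicate 3 of Zeb1WT, the highest, the value was -0.55 (edgeR adjusted p = 0.18). The call of Ccnd2 was also lost without replicate 1 or 2 of Zeb1∆M (to -0.94, edgeR adjusted p from 0.12). Cdk1 was at 0.101, 0.421 and 1.04 CPM in Zeb1∆M, below the 2, 1.71 and 2.01 CPM of Zeb1WT (-1.84, SE 0.5, edgeR adjusted p = 0.035). This call was lost without replicate 1 or 3 of Zeb1WT or replicate 1 or 2 of Zeb1∆M (-1.83 to -1.38, edgeR adjusted p from 0.078 to 0.12). Plk1 had 0 counts in Zeb1∆M and 27 over the Zeb1WT libraries (edgeR adjusted p = 0.0083). It was 12-fold lower with the 0 set to a floor of 3 counts over the group and the 27 taken as exact. Its call held with each library left out, but those fits kept the LPS + LPS libraries, where Plk1 was higher, in the filter. With only the groups compared Plk1 did not enter the test. Cdkn1b had an edgeR adjusted p of 0.049 (-2.61), lost with any 1 of the 6 libraries left out (-2.91 to -2.45, edgeR adjusted p from 0.052 to 0.16). Leaving out replicate 3 of Zeb1∆M gave 7 called members, while 702 of all genes were called against 789 in the main fit. Without TMM the Ccnd2, Cdk1 and Cdkn1b calls were lost (-0.31, -1.24 and -2.08, edgeR adjusted p = 0.27, 0.074 and 0.057), and the members' calls were 2 higher and 1 lower, while 3598 of the 13443 genes tested were called. In this treatment 7 of 13 neutrophil, 6 of 10 B cell and 9 of 10 monocyte and small peritoneal macrophage markers were lower in Zeb1∆M, and their part in the result was not tested.

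Per length of merged exons, levels can be set side by side between genes. In Zeb1WT LPS the highest members were Cdkn1a at 77.4 CPM per kilobase, Ccnd2 at 63.2, Cdkn2d at 28.7, Pcna at 18.5 and Ccnd3 at 12.1. The mitotic members there were mostly under 1 CPM per kilobase, such as Ccnb1 at 0.325, Cdk1 at 0.361 and Cdc20 at 0.427. In Zeb1WT LPS + LPS Cdkn1a was still first at 53.2, followed by Cdkn2d at 45.9 and Ccnd3 at 27.9, while Ccnd2 stood at 12.4, Ccnb2 at 8.69, Cdc20 at 5.15 and Ccnb1 at 4.51. Among the D cyclins the order Ccnd2, Ccnd3, Ccnd1 in LPS thus became Ccnd3, Ccnd2, Ccnd1 in LPS + LPS in both genotypes, with Ccnd3 at 21.5, Ccnd2 at 9.77 and Ccnd1 at 0.374 in Zeb1∆M LPS + LPS. Since 14 of the 40 members overlap an annotated gene on the opposite strand, Ccnd1, Ccnd2 and Ccnd3 among them, such levels may include reads of the other strand.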

How the data were processed

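Per the submitters' processing notes the libraries (TruSeq Stranded mRNA) were handled with STAR, RSEM and DESeq2 on GRCm38, without versions, and the strand setting and annotation release are not given in the sources used here. The authors deposited a table of raw counts per gene, whole numbers with 1 column per library and no pooling of replicates, and 0 columns of it were left unused. Groups follow the labels, which do not say that pools of mice were independent, so p-values cover the spread between these libraries. Counts were tested with edgeR 4.0.16 (R 4.3.3, limma 3.58.1), using TMM factors, its filter on low counts over the 6 groups, 1 quasi-likelihood fit of all 18 libraries without a replicate block, and Benjamini-Hochberg adjustment over the 13443 genes tested, with a threshold of 0.05. SE is the absolute log2 fold change divided by the square root of F. Alternatives were DESeq2 1.42.0, a fit limited to the groups compared, median-of-ratios factors, a replicate block, no filter, and each library left out. Library totals without TMM were added after seeing the data. Named members are those called, at most 12 by size of change in each comparison, with a fixed set of 16 given in all groups. The members and lists were chosen with earlier results of these data known. Of the file's gene IDs 55094 match GENCODE M21. Counting intervals cover counting error only, and floors (3 counts over a group) cover that of the group at 0 but not of the other group. Same-numbered libraries were not paired, since their deviations from the group means correlated by -0.09 to 0.14 over 21 pairs, 1 of them over 0.1.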

Additional observations from a re-analysis of the deposited data

How the results depend on the processing

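The number of called members stayed within 1.5 times the main count for LPS + LPS against LPS in both genotypes under every alternative run, with 19 to 25 and 25 to 28 members with 1 library left out (26 and 29 in the main fit). The same held for Metformin + LPS against LPS in Zeb1∆M and for the LPS + LPS interaction. Elsewhere it moved, and the cause was not tested. Zeb1∆M against Zeb1WT in LPS had 1 member, 2 with median-of-ratios scaling, 5 without the filter, 4 with DESeq2, 3 with only the groups compared, and 0 to 1 with 1 library left out. Over all genes 154 were called in the main fit and 173 with median-of-ratios scaling. Without the filter 738 genes were called, with DESeq2 505 and with only the groups compared 199. In LPS + LPS the 0 members became 1 with DESeq2 and 0 to 1 with 1 library left out, the 1 being Cdkn1b without replicate 1 of Zeb1WT. The genes called there were 91 in the main fit, 382 with DESeq2 and 397 without that replicate. In Metformin + LPS the 4 became 0 with only the groups compared, where Plk1 and Cdkn1b did not enter the test, and 1 to 7 with 1 library left out: 1 without replicate 3 of Zeb1WT or replicate 1 of Zeb1∆M, 2 without replicate 1 of Zeb1WT or replicate 2 of Zeb1∆M, and 7 without replicate 3 of Zeb1∆M. Of all genes 789 were called in the main fit, 505 with only the groups compared and 702 without replicate 3 of Zeb1∆M. Metformin + LPS against LPS in Zeb1WT went from 6 to 10 with DESeq2, 3 with only the groups compared, 17 with library totals and 3 to 7 with 1 library left out (3 without replicate 1 of Zeb1WT LPS), and in Zeb1∆M from 9 to 7 to 11. All-gene calls in Zeb1WT were 3392 in the main fit, 3983 with DESeq2, 3111 with only the groups compared and 5597 with library totals. The Metformin interaction went from 0 to 3 without the filter, 2 with DESeq2 and 1 with library totals, and both interactions had 0 to 0 with 1 library left out. Its all-gene calls were 21 for the Metformin interaction in the main fit, 601 without the filter, 300 with DESeq2 and 131 with library totals. With library totals Ccnd2 and Pcna reversed to -0.63 and -0.2 for Metformin + LPS against LPS in Zeb1WT. A replicate block gave 1, 0 and 3 members for the genotype comparisons, 26 and 29 for LPS + LPS, 5 and 8 for Metformin and 0 for both interactions, but the numbers do not pair the samples. Low counts limit the mitotic genes outside LPS + LPS, where Ccnb1, for example, held 78, 61, 76 and 39 counts over the 3 libraries of a group.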
